A study of Mus musculus with 15 samples.

Results

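The genes described here encode 9 chemokine and chemoattractant receptors, Ccr1, Ccr2, Ccr7, Ccrl2, Cx3cr1, C3ar1, C5ar1, Fpr1 and Fpr2. They were chosen by name as receptors through which myeloid cells sense chemokines, complement fragments and formylated peptides, and they are 9 of the 51763 genes in the count table. The study asked how redox forms of the nuclear protein HMGB1 change macrophages, set beside bacterial lipopolysaccharide (LPS) with and without interferon gamma (IFNγ). Bone marrow from female wild-type C57BL/6NTac mice, aged 8 to 10 weeks, was grown into macrophages with M-CSF and pooled from 5 mice before seeding. Each of 5 conditions had 3 libraries, so the replicates are technical, and the p values cover the spread between technical replicates but not between mice. RNA was read by stranded, poly(A)-selected sequencing 24 h after stimulation.

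The groups were PBS as the control, recombinant fully reduced HMGB1 (frHMGB1) at 5 µg/mL, recombinant disulfide HMGB1 (dsHMGB1) at 5 µg/mL, LPS at 1 µg/mL, and LPS together with IFNγ at 20 ng/mL (LPS/IFNγ). According to the methods, frHMGB1 was made in buffers with the reducing agent DTT and dsHMGB1, a gift from another laboratory, without it. The purified protein was kept in PBS with or without DTT, so plain PBS may not match the buffer of frHMGB1. An effect of the redox form cannot be told apart from one of DTT or of the protein's source. The LPS dose of the LPS/IFNγ group is 100 ng/mL in the protocol text and 1 µg/mL in the treatment field, so the difference between LPS/IFNγ and LPS cannot be told apart from a possible difference in LPS dose. The culture time is given as 10 days in the labels and as 8 to 9 days in the methods.

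These receptors sit in the plasma membrane, couple for the most part to inhibitory G proteins and steer leukocytes up gradients of their ligands. Chemokine receptors guide monocytes and dendritic cells between blood, tissue and lymph node, while receptors for complement fragments and formylated peptides bring phagocytes to sites of infection or cell damage. Macrophages carry several of them at once and change the set when they meet microbial products.

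The 15 libraries held 40934540 to 80925478 counts each. PBS replicate 3 stood apart from the other PBS libraries before any comparison was made. Across genes, its log2 levels correlated with those of PBS replicates 1 and 2 at r = 0.939 and 0.934, whereas the other replicate pairs lay between 0.987 and 0.993. The dsHMGB1 libraries also varied more by chi-square per degree of freedom, at 63.9, 36.2 and 17.3 for their 3 pairs, beside 517 and 573 for the pairs with PBS replicate 3 and 3.7 to 7.86 for all other pairs. Processed pseudogenes took 1.49% of the counts of PBS replicate 3, and mitochondrial genes 0.346%. In PBS replicates 1 and 2 those shares were 0.816% and 0.805% for pseudogenes and 0.840% and 0.890% for mitochondrial genes. Every comparison with PBS rests in part on that library, so results that change without it are given both ways. Without it, all 68 of the calls that the 9 receptors had in the 10 comparisons were kept and 6 were gained. All 4 comparisons with PBS use the same 3 PBS libraries.

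All 9 receptor genes passed the filter on low counts and were among the 16919 genes tested. Ccr7, Fpr1 and Fpr2 passed through the conditions in which they were high, so their being tested is no evidence of a difference. A gene was called when its adjusted p from edgeR's quasi-likelihood test, with the Benjamini-Hochberg correction over all 16919 genes, lay under 0.05. Log2 fold changes and standard errors (SE) in the report come from DESeq2, and normalized counts are counts divided by DESeq2's size factors. In bulk RNA, fewer cells of a type and less RNA per cell cannot be told apart.

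With dsHMGB1, the formyl peptide receptor genes Fpr1 and Fpr2, barely detected with PBS, and the atypical receptor gene Ccrl2 rose, while Ccr2 and Cx3cr1 fell. That is 3 of 9 called higher, against 23.3% of all tested genes, and 2 of 9 called lower, against 24.2%. With LPS, 6 of 9 were called higher (Ccr1, Ccr7, Ccrl2, C5ar1, Fpr1 and Fpr2), against 26.7% of all tested genes, and 2 of 9 lower (Ccr2 and Cx3cr1), against 36.2%. With LPS/IFNγ, 7 of 9 were called higher, the same 6 and Ccr2, against 29% of all tested genes, and 1 of 9 lower (Cx3cr1), against 31.2%. With frHMGB1, 2 of 9 were called higher (Fpr1 and Fpr2), against 1.31% of all tested genes, and 0 of 9 lower, against 5.69%. For that 0, edgeR also gave 0 lower receptors at an unadjusted p under 0.05, and DESeq2 gave 0. Ccr7, Fpr1 and Fpr2 could pass the filter only where they were high, and of the other 6 receptors 1 was called higher with dsHMGB1, 3 with LPS and 4 with LPS/IFNγ. Of these counts, the 2 higher with frHMGB1 became 1 without PBS replicate 1, PBS replicate 2, frHMGB1 replicate 1 or frHMGB1 replicate 2, and the 3 higher with dsHMGB1 became 5 without PBS replicate 2. Without PBS replicate 3, the counts called lower were 1 with frHMGB1, 3 with LPS and 2 with LPS/IFNγ. The background with frHMGB1 changed as well. Of all tested genes 1185 were called, 18.7% of them higher, against 3035 and 48.1% without PBS replicate 3, and 70 and 58.6% among protein-coding genes alone.

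**Figure D1:**
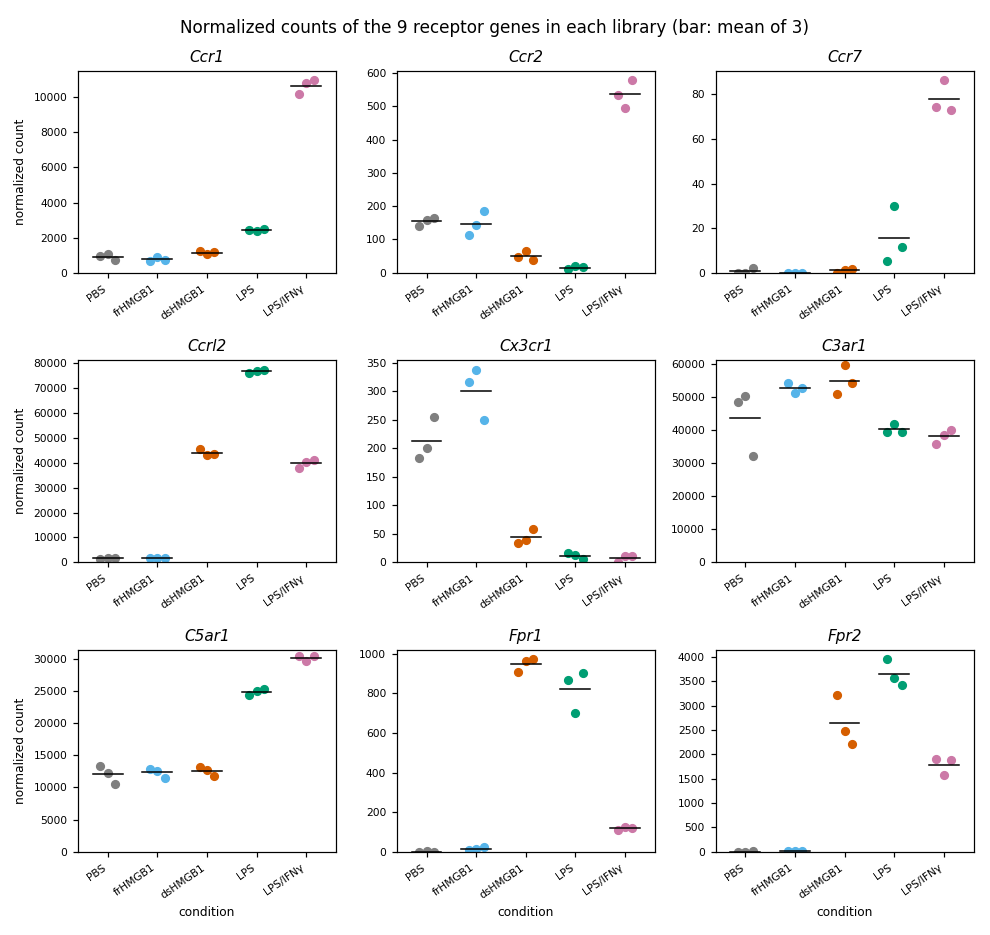
Normalized counts (y axis, linear from 0) of each of the 9 receptor genes in the 5 conditions (x axis). Each point is a library and each bar the mean of 3; Fpr1, Fpr2 and Ccrl2 rise from near the bottom of their panels with dsHMGB1, LPS and LPS/IFNγ, and Ccr1, Ccr2 and Ccr7 are highest with LPS/IFNγ.

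Between the stimulations, dsHMGB1 against LPS gave 3 of 9 higher (Ccr2, Cx3cr1 and C3ar1), against 15.8% of all tested genes, and 4 of 9 lower (Ccr1, Ccr7, Ccrl2 and C5ar1), against 10.6%. In dsHMGB1 against LPS/IFNγ, 3 of 9 were higher (Cx3cr1, C3ar1 and Fpr1), against 16.5%, and 4 of 9 lower (Ccr1, Ccr2, Ccr7 and C5ar1), against 16.7%. In LPS/IFNγ against LPS, 4 of 9 were higher (Ccr1, Ccr2, Ccr7 and C5ar1), against 16.3%, and 3 of 9 lower (Ccrl2, Fpr1 and Fpr2), against 9.36%. Called in either direction against frHMGB1 were 6 of 9 with dsHMGB1, 9 of 9 with LPS and 9 of 9 with LPS/IFNγ, against 50.8%, 53.6% and 64.2% of all tested genes. Each of these comparisons shares its libraries with others, so their calls are not independent of each other. In dsHMGB1 against LPS/IFNγ the 3 higher became 5 without PBS replicate 3, and in LPS/IFNγ against LPS the 4 higher became 2 without LPS replicate 1, LPS replicate 3 or any 1 LPS/IFNγ library.

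The median log2 fold change of the 9 receptors against PBS was 0.10 with frHMGB1, 0.33 with dsHMGB1, 1.40 with LPS and 3.53 with LPS/IFNγ. Over all tested genes the medians were -0.01, -0.10, -0.21 and -0.12. Ccr7 was at or near 0 in PBS and its fitted value is no bound, and over the other 8 receptors the medians were 0.18, 0.33, 1.22 and 2.66. Those 8 still hold Fpr1 and Fpr2, which passed the filter only where they were high, so the medians are no evidence of a difference from all tested genes. Without Fpr1 and Fpr2 as well, the middle values were lower. They were -0.12 (C3ar1) and 1.05 (C5ar1) with LPS, and 1.33 (C5ar1) and 1.80 (Ccr2) with LPS/IFNγ. Between stimulations the median of the 9 was -0.47 for dsHMGB1 against LPS, 0.14 for dsHMGB1 against LPS/IFNγ and -0.08 for LPS/IFNγ against LPS, beside 0.02, 0.01 and 0.00 over all tested genes. Without Ccr7 those 3 medians were -0.13, 0.34 and -0.32. Scaling by library totals alone, a choice made after seeing the data, shifted the median of all genes by -0.35, -0.63 and -0.66 with dsHMGB1, LPS and LPS/IFNγ against PBS, and by 0.28 and 0.31 for dsHMGB1 against LPS and against LPS/IFNγ. No called direction of a receptor flipped under that scaling, but C5ar1, not called in dsHMGB1 against frHMGB1 (log2 0.03), became called lower there (edgeR log2 -0.38, adjusted p = 0.0291).

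**Figure D2:**
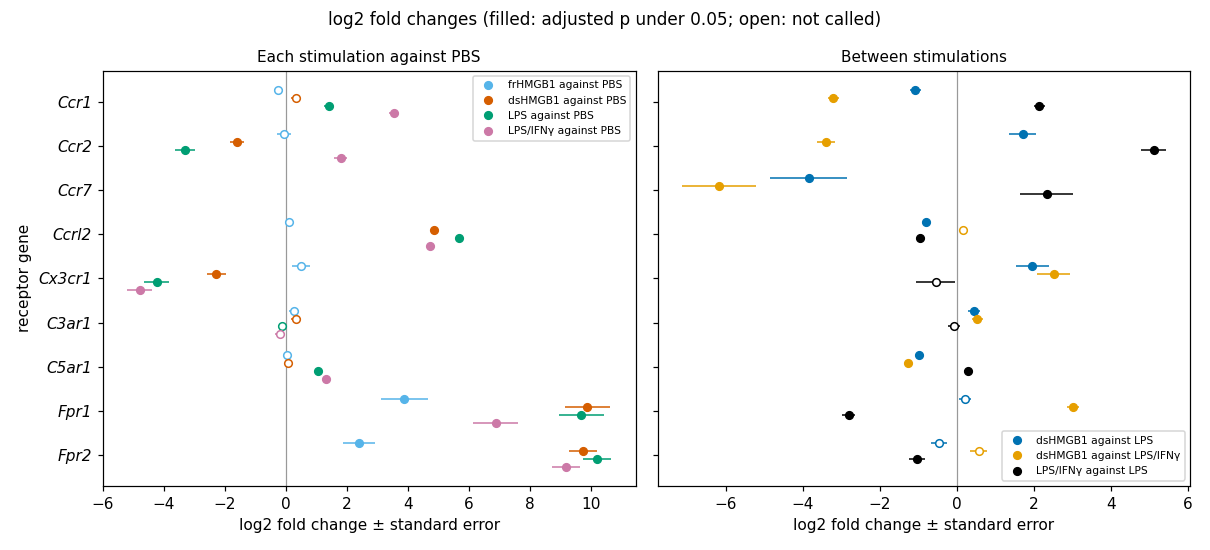
Log2 fold changes (x axis, log2 scale, bars ± standard error) of the 9 receptor genes (y axis), each stimulation against PBS at left and between stimulations at right. Filled points have an adjusted p under 0.05 and open points do not, and Ccr7, at or near 0 in PBS, is left out at left; Fpr1 and Fpr2 lie farthest to the right and Cx3cr1 farthest to the left among the changes from PBS.

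Fpr1 and Fpr2 encode receptors for formylated peptides, which bacteria and damaged mitochondria release, and Fpr2 also binds annexin A1 and serum amyloid A. Fpr1 (ENSMUSG00000045551) lies at chr17:17876471-17883940 on the minus strand and Fpr2 (ENSMUSG00000052270) at chr17:17887824-17893952 on the plus strand of GRCm38. They stand head to head with 3883 bases between them. The windows from 250 bases before to 50 bases after their starts are shown because this neighbouring pair rose together. They cover chr17:17883890-17884189 on the minus strand and chr17:17887574-17887873 on the plus strand (RefSeq, GRCm38.p6), and capitals mark matches to the interferon response core AANNGAAA and the interferon gamma element TTCNNNGAA on either strand.
Fpr1: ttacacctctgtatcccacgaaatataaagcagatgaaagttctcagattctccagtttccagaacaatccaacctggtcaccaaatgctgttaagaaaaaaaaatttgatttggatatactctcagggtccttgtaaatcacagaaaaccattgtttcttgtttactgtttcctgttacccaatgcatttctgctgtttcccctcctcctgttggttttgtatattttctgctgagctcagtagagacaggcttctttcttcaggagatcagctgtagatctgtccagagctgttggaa
Fpr2: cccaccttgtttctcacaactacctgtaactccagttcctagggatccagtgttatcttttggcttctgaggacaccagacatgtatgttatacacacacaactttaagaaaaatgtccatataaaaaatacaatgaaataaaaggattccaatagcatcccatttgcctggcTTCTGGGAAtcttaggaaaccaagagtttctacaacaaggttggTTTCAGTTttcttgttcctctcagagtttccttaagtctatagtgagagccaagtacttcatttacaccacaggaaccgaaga

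The Fpr2 window held TTCTGGGAA starting at -77 from the start site and TTTCAGTT, the reverse complement form of the interferon core, at -33. It also held TTCCTC, the reverse form of the PU.1 core GAGGAA, at -19. None of the 5 motifs searched was found in the Fpr1 window. Of all 32851 promoter windows of this length, 23.9% held the interferon core, 8.3% the gamma element and 28.3% the PU.1 core, so each match is a description of letters and not a binding site.

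Fpr1 had 0, 2.52 and 0 normalized counts in the PBS libraries and 10.7, 12.3 and 21.6 with frHMGB1. It had 909, 962 and 973 with dsHMGB1, 869.7, 699 and 901 with LPS, and 110.2, 123 and 119.7 with LPS/IFNγ. The dsHMGB1 libraries were the highest, all 9 libraries of dsHMGB1, LPS and LPS/IFNγ lay above all others, and the frHMGB1 libraries lay above the PBS libraries without overlap. Since PBS held 4 counts in all, ratios to PBS are given from summed counts with exact 95% Clopper-Pearson intervals. These cover at most counting error, since each count is taken as an independent molecule. Reads copied by PCR, or both reads of a pair counted, would make the intervals too narrow. All counts of Ccr7, and those of Fpr1 and Fpr2 with PBS, were even, and how read pairs were counted is not given. The ratio was 946 (369 to 3470) with dsHMGB1, 823 (321 to 3020) with LPS, 117 (45.4 to 433) with LPS/IFNγ and 14.7 (5.34 to 56.5) with frHMGB1. All 4 rises were called, with adjusted p values of 8.78e-10, 6.47e-10, 2.92e-08 and 0.00101 in that order. The PBS counts all came from replicate 2, and without that library PBS was at 0 and the calls held (0.00013 for frHMGB1). Without PBS replicate 1, which was at 0, the fitted log2 change of Fpr1 in edgeR went to 3.12 with frHMGB1, 9.09 with dsHMGB1, 8.83 with LPS and 6.06 with LPS/IFNγ, from 3.75, 9.71, 9.46 and 6.69.

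Between the stimulations, Fpr1 was 8.05-fold higher with dsHMGB1 than with LPS/IFNγ (log2 3.01, SE 0.165, adjusted p = 2.13e-06). It fell by 2.81 on the log2 scale in LPS/IFNγ against LPS (SE 0.166, adjusted p = 8.14e-06). Its level with dsHMGB1, 948 ± 34.2 (SD, n = 3), and with LPS, 823 ± 109, were not called apart (log2 0.20, adjusted p = 0.525). The call with frHMGB1 ended when frHMGB1 and PBS were fitted without the other 3 conditions (adjusted p = 0.185), and it held in each fit with a library left out (adjusted p from 0.00013 to 0.00579).

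Fpr2 had 3.88, 0 and 7.04 normalized counts in the PBS libraries and 23.5, 18.4 and 6.47 with frHMGB1. It had 3225, 2468 and 2215 with dsHMGB1, 3951, 3562 and 3426 with LPS, and 1894, 1582 and 1877 with LPS/IFNγ. LPS stood highest, dsHMGB1 and LPS/IFNγ followed without overlap, and frHMGB1 replicate 3 fell inside the PBS range. From 12 counts in PBS, the ratio of summed counts was 1220 (695 to 2350) with LPS, 869 (497 to 1680) with dsHMGB1, 594 (340 to 1150) with LPS/IFNγ and 5.38 (2.8 to 11.2) with frHMGB1. All were called, with adjusted p values of 1.29e-09, 3.18e-09, 2.92e-09 and 0.0337 in that order. Without PBS replicate 2, which was at 0 for Fpr2, edgeR's log2 changes with dsHMGB1, LPS and LPS/IFNγ went from 9.67, 10.09 and 9.09 to 8.99, 9.40 and 8.41, and without PBS replicate 3 to 10.31, 10.75 and 9.71.

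The frHMGB1 call of Fpr2 (log2 2.40, SE 0.512) was lost without PBS replicate 1 (adjusted p = 0.0608), PBS replicate 2 (0.0586), frHMGB1 replicate 1 (0.159) or frHMGB1 replicate 2 (0.115), and held without PBS replicate 3 (0.0131). Its log2 fold change in edgeR ran from 1.68 to 3.00 over those fits. It was also lost with a filter of 1 CPM in 3 libraries (0.0525) and among protein-coding genes alone (0.191). In LPS/IFNγ against LPS, Fpr2 fell by 1.03 on the log2 scale (SE 0.214, adjusted p = 0.0312), a call that was lost on leaving out any of the 6 libraries of those conditions (adjusted p from 0.0566 to 0.1 over those 6 fits). Against LPS (log2 -0.47, adjusted p = 0.376) and LPS/IFNγ (log2 0.56, adjusted p = 0.18) the dsHMGB1 level of Fpr2 was not called, although the libraries did not overlap. Without PBS replicate 3, an alternative added after seeing the data for comparisons that do not use PBS, both were called (edgeR log2 -0.45, 0.0136, and log2 0.60, 0.00152). The difference from LPS was also called when those conditions were fitted alone (0.0192), and that from LPS/IFNγ by DESeq2 (0.0301), when fitted alone (0.00383) and with library totals (0.0368).

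Reads of Fpr2 are the least unique of the 9. Of the 50-base stretches in its exons, 31.5% also occur in Gm5966, Fpr3 or Fpr1, and 48 of its exon bases lie in exons of Fpr3 on the same strand. Gm5966 held 53 counts and Fpr3 18 counts over all 15 libraries, both named after their values were seen, against 22801 for Fpr2. How the counting treated reads that map to several genes is not given in the sources used here.

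C3ar1 and C5ar1 encode the receptors of the complement anaphylatoxins C3a and C5a. C3ar1 (ENSMUSG00000040552, chr6:122847138-122856161, minus strand) was the most abundant of the 9 by mean normalized count, above 99.1% of tested genes. It had 48470.5, 50205 and 32118 normalized counts with PBS, 54135, 51008.5 and 52558 with frHMGB1, and 50681, 59624 and 54268 with dsHMGB1. With LPS it had 39254, 41804 and 39329, and with LPS/IFNγ 35779.6, 38386 and 39831. The frHMGB1 and dsHMGB1 libraries overlapped and lay above all libraries of LPS and LPS/IFNγ, and PBS replicate 3 lay below every other library.

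With all libraries, C3ar1 was not called against PBS in any condition, with log2 fold changes of 0.27 (frHMGB1), 0.33 (dsHMGB1), -0.12 (LPS) and -0.20 (LPS/IFNγ) and adjusted p of 0.412, 0.11, 0.297 and 0.207. Those calls turn on PBS replicate 3. The PBS mean was 43598 ± 9980 (SD, n = 3) with it and 49338 over replicates 1 and 2. Without it, edgeR called C3ar1 lower with LPS (log2 -0.36, adjusted p = 0.000116) and with LPS/IFNγ (log2 -0.45, adjusted p = 9.21e-06) and gave 0.09 and 0.12 for frHMGB1 and dsHMGB1 (adjusted p = 0.433 and 0.138). Without PBS replicate 2, C3ar1 was called higher with dsHMGB1 (log2 0.45, adjusted p = 0.0364). Scaling by library totals turned the dsHMGB1 value to -0.06 and called C3ar1 lower with LPS (log2 -0.84, adjusted p = 0.00126) and LPS/IFNγ (log2 -0.91, adjusted p = 0.000728).

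C3ar1 was higher with dsHMGB1 than with LPS (1.37-fold, log2 0.45, SE 0.152, adjusted p = 0.0275) and than with LPS/IFNγ (1.44-fold, log2 0.53, SE 0.152, adjusted p = 0.0143), in 3 of 3 libraries each. The call against LPS was lost without dsHMGB1 replicate 2 (adjusted p = 0.103) or 3 (0.0658) and without LPS replicate 1 (0.1), 2 (0.0799) or 3 (0.107). The call against LPS/IFNγ was lost without dsHMGB1 replicate 2 (0.0611) or LPS/IFNγ replicate 1 (0.0509). Without PBS replicate 3 both held (adjusted p = 3.39e-06 and 2.55e-07). Against frHMGB1, C3ar1 was lower with LPS by a log2 fold change of -0.39 (adjusted p = 0.0201) and with LPS/IFNγ by -0.47 (adjusted p = 0.0106). Of these, the LPS call was lost without frHMGB1 replicate 1 (0.0578) or any 1 LPS library (0.0541 to 0.0771), and both were lost with no filter on low counts (0.159 and 0.0751).

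C5ar1 (ENSMUSG00000049130, chr7:16246743-16259540, minus strand) had 13285, 12219.5 and 10579 normalized counts with PBS, 12900.1, 12597 and 11519 with frHMGB1, and 13215, 12707 and 11846 with dsHMGB1. It had 24444, 24960 and 25273 with LPS and 30455, 29637 and 30396 with LPS/IFNγ. The first 3 conditions overlapped, and LPS and then LPS/IFNγ lay above them with no overlap. C5ar1 rose 2.07-fold with LPS (log2 1.05, SE 0.093, adjusted p = 2.35e-06) and 2.51-fold with LPS/IFNγ (log2 1.33, SE 0.0929, adjusted p = 1.41e-07). Over the alternative scalings, tests, filters and fits, C5ar1 stayed called, at log2 0.34 to 1.11 with LPS and 0.63 to 1.38 with LPS/IFNγ. With dsHMGB1 it stayed at 1.05-fold of PBS (log2 0.07, adjusted p = 0.693) and was 1.98-fold lower than with LPS (log2 -0.98, SE 0.093, adjusted p = 2.5e-05). The uncalled dsHMGB1 and frHMGB1 values changed sign in edgeR without PBS replicate 3 (-0.05 for both), and the dsHMGB1 value also with library totals (-0.31). The step from LPS to LPS/IFNγ was 1.21-fold (log2 0.28, SE 0.0929, adjusted p = 0.0398) and lost its call without any 1 of those 6 libraries (adjusted p from 0.147 to 0.179), with no filter on low counts (0.115) and with library totals (0.143).

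Ccr1 and Ccr2 encode receptors for inflammatory CC chemokines, Ccr1 for ligands such as Ccl3 and Ccl5 and Ccr2 for Ccl2 and its relatives, the signal by which monocytes leave bone marrow. Ccr1 (ENSMUSG00000025804) lies at chr9:123962124-123968692 on the minus strand. Its promoter window, chr9:123968643-123968942 on the minus strand, is shown because Ccr1 was the receptor that rose most from LPS to LPS/IFNγ among those with over 1000 normalized counts on average. Capitals mark matches to the interferon response core AANNGAAA on either strand.
Ccr1: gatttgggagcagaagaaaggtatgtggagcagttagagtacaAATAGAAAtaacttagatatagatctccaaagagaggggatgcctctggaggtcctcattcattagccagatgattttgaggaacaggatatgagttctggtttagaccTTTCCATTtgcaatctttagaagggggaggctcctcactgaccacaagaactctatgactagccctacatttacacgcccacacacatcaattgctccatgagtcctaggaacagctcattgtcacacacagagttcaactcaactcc

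The matches start at -207 and -98 from the start site, and GAGGAA occurs at -129. None of the 5 motifs was found in the windows of Ccr2, C5ar1 and Cx3cr1. The C3ar1 window held the interferon core at -209 and the AP-1 motif TGANTCA, present in 7.81% of all windows, at -22. No match overlapped another. Windows were found for 8 of the 9 receptors, 10 windows in all, and none was listed for Ccr7.

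Ccr1 had 952, 1057 and 747 normalized counts with PBS, 656, 906 and 756 with frHMGB1, and 1232, 1047 and 1171 with dsHMGB1. It had 2414, 2377 and 2495 with LPS and 10186, 10791 and 10988.5 with LPS/IFNγ. The LPS/IFNγ libraries lay far above all others, LPS lay between, and PBS overlapped both HMGB1 conditions. Ccr1 rose 2.64-fold with LPS (log2 1.40, SE 0.147, adjusted p = 4.74e-06) and 11.6-fold with LPS/IFNγ (log2 3.53, SE 0.146, adjusted p = 5.07e-10). Over the alternative scalings, tests, filters and fits, Ccr1 stayed called, at log2 0.69 to 1.46 with LPS and 2.83 to 3.59 with LPS/IFNγ. LPS/IFNγ was 4.39-fold above LPS (log2 2.13, SE 0.145, adjusted p = 3.97e-07), and dsHMGB1 was 2.11-fold below LPS (log2 -1.08, SE 0.147, adjusted p = 0.000227).

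With frHMGB1 and dsHMGB1, Ccr1 was not called against PBS (log2 -0.25 and 0.32, adjusted p = 0.475 and 0.108). Without PBS replicate 3, the lowest PBS library for Ccr1, it was called lower with frHMGB1 (edgeR log2 -0.38, adjusted p = 0.0169) and not called with dsHMGB1 (log2 0.16, adjusted p = 0.197). Without PBS replicate 2 it was called higher with dsHMGB1 (log2 0.44, adjusted p = 0.0334), whereas scaling by library totals gave -0.06. Ccr1 was 1.49-fold higher with dsHMGB1 than with frHMGB1 (log2 0.57, SE 0.149, adjusted p = 0.00808), in 3 of 3 libraries, a call lost with library totals (adjusted p = 0.442).

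Ccr2 (ENSMUSG00000049103, chr9:124101950-124113557, plus strand) had 139.7, 159.6 and 164 normalized counts with PBS, 114, 143 and 184 with frHMGB1, and 48.0, 66.0 and 37.8 with dsHMGB1. It had 10.3, 20.9 and 16.2 with LPS and 533, 495.5 and 578 with LPS/IFNγ. PBS and frHMGB1 overlapped, dsHMGB1 and then LPS lay lower, and LPS/IFNγ lay above every other library. Ccr2 was thus called in opposite directions with LPS, where it fell by 3.30 on the log2 scale (SE 0.332, adjusted p = 2.42e-07), and with LPS/IFNγ, where it rose 3.47-fold (log2 1.80, SE 0.221, adjusted p = 1.58e-05). The direct comparison of LPS/IFNγ with LPS gave 34.3-fold (log2 5.10, SE 0.329, adjusted p = 4.64e-08). With dsHMGB1 it fell by 1.60 on the log2 scale from PBS (SE 0.242, adjusted p = 9.24e-05) and stayed 3.26-fold above LPS (log2 1.70, SE 0.343, adjusted p = 0.000597). Each of these 5 calls held without any 1 library.

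Ccr7 encodes the receptor for Ccl19 and Ccl21 that leads mature dendritic cells to lymph nodes. Ccr7 (ENSMUSG00000037944, chr11:99144196-99155077, minus strand) was the scarcest of the 9, with 0, 0 and 2 raw counts in the PBS libraries, 0 in each frHMGB1 library and 0, 2 and 2 with dsHMGB1. It had 4, 20 and 8 counts with LPS and 70, 82 and 80 with LPS/IFNγ, which is 15.6 ± 12.8 and 77.9 ± 7.31 normalized counts (SD, n = 3). The LPS libraries varied widely, led by replicate 2, and the LPS/IFNγ libraries lay above them all.

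By summed counts, Ccr7 stood at 30 times PBS with LPS (7.66 to 259) and at 155 times PBS with LPS/IFNγ (42.3 to 1280). Against the 0 counts of frHMGB1, the exact 95% limits below its ratios were 10.9 with LPS and 59.3 with LPS/IFNγ. With frHMGB1 taken as 3 counts over the group, the ratios were 14.3 and 73.5, which are no bounds. The adjusted p against PBS was 0.00246 with LPS and 5.98e-05 with LPS/IFNγ, and the difference between dsHMGB1 and PBS, at 4 and 2 counts, was not detectable at this depth. LPS/IFNγ was 5.03-fold above LPS (log2 2.33, SE 0.689, adjusted p = 0.0223). This call was lost without LPS replicate 1 (0.084) or 3 (0.0877) or any 1 LPS/IFNγ library (0.0613 to 0.0755). With dsHMGB1, Ccr7 stood at 0.0722 of its LPS level (0.0185 to 0.204, adjusted p = 0.013), a call lost without LPS replicate 2 (0.0676), and at 0.014 of its LPS/IFNγ level (0.00379 to 0.0364, adjusted p = 0.000243). Both PBS counts came from replicate 3, and without it PBS was at 0 and both rises from PBS were still called (adjusted p = 0.000225 and 2e-06). LPS replicate 2 held 20 of the 32 LPS counts, and without it the step to LPS/IFNγ went from 2.36 to 3.18 on edgeR's log2 scale (adjusted p = 0.0135), and the rise from PBS with LPS was smaller and still called (0.0126). Without PBS replicate 1 or 2 the LPS rise was called at 0.0107 and 0.0101 and the LPS/IFNγ rise at 0.000406 and 0.000349.

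Ccrl2 encodes an atypical receptor that binds chemerin and presents it to other cells without G protein signalling of its own. Ccrl2 (ENSMUSG00000043953) lies at chr9:111054486-111057519 on the minus strand. Of its 3 promoter windows, the one at chr9:111057469-111057768 is shown because Ccrl2 rose in all 3 inflammatory conditions and this was the window of the 10 with an NF-κB match, a motif present in 4.51% of all windows. The capitals mark that match, which starts at -56 from the start site.
Ccrl2: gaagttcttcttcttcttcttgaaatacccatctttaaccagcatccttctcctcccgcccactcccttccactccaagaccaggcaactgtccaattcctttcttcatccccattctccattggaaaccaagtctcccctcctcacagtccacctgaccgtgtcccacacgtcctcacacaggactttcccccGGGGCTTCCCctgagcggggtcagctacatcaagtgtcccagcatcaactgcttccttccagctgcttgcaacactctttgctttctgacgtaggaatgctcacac

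Ccrl2 had 1452, 1537 and 1557 normalized counts with PBS and 1654, 1545 and 1653 with frHMGB1. It had 45556, 43164 and 43406 with dsHMGB1, 76234, 77076 and 77510.4 with LPS, and 38095, 40378.5 and 41128 with LPS/IFNγ. The 9 libraries of dsHMGB1, LPS and LPS/IFNγ lay far above the other 6, and the LPS libraries above all. Ccrl2 rose 29.1-fold with dsHMGB1 (log2 4.86, SE 0.0601, adjusted p = 1.22e-13), 50.8-fold with LPS (log2 5.67, SE 0.0601, adjusted p = 3.49e-14) and 26.3-fold with LPS/IFNγ (log2 4.72, SE 0.0601, adjusted p = 7.36e-14). It was 1.93-fold lower with LPS/IFNγ than with LPS (log2 -0.95, SE 0.0571, adjusted p = 1.13e-06) and 1.75-fold lower with dsHMGB1 than with LPS (log2 -0.81, SE 0.0571, adjusted p = 7.17e-06).

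The level of Ccrl2 with dsHMGB1 was 1.1-fold that with LPS/IFNγ, with no overlap between libraries but no call (log2 0.14, SE 0.0571, adjusted p = 0.11). That difference was called by DESeq2 (adjusted p = 0.0396), by the fit of the pair of conditions alone (0.0395), with library totals (0.000973) and without PBS replicate 3 (0.00431). Over the fits that left out 1 library it ran from 0.00431 to 0.244.

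Cx3cr1 encodes the receptor of fractalkine (Cx3cl1), typical of patrolling monocytes and of several resident macrophages. Cx3cr1 (ENSMUSG00000052336, chr9:119901616-120069879, minus strand) had 183, 201 and 255 normalized counts with PBS and 315, 337 and 249 with frHMGB1. It had 32.9, 38.9 and 58.8 with dsHMGB1, 15.5, 11.95 and 5.88 with LPS, and 1.06, 10.5 and 10.96 with LPS/IFNγ. PBS and frHMGB1 overlapped, all 9 libraries of the other conditions lay below them, and LPS and LPS/IFNγ overlapped. Cx3cr1 fell by 2.29 on the log2 scale with dsHMGB1 (SE 0.31, adjusted p = 0.000219), by a log2 fold change of -4.24 with LPS (SE 0.413, adjusted p = 2.32e-06) and of -4.80 with LPS/IFNγ (SE 0.417, adjusted p = 7.83e-07). With dsHMGB1 it remained 3.87-fold above LPS (log2 1.95, SE 0.425, adjusted p = 0.0058) and 5.7-fold above LPS/IFNγ (log2 2.51, SE 0.43, adjusted p = 0.000874). The 1.42-fold difference between frHMGB1 and PBS was not called (log2 0.50, SE 0.292, adjusted p = 0.504).

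The order of the conditions differed between the receptors. Ccr1, C5ar1 and Ccr7 were highest with LPS/IFNγ, then LPS, then the other 3 conditions. Among those 3, neighbours in the order were not called apart, although Ccr1 was called higher with dsHMGB1 than with frHMGB1. Ccr2 went from LPS/IFNγ through PBS and frHMGB1, not called apart, to dsHMGB1 and LPS. Fpr1 went from dsHMGB1 and LPS, not called apart, through LPS/IFNγ and frHMGB1 to PBS. For Fpr2 the order was LPS, dsHMGB1, LPS/IFNγ, frHMGB1 and PBS, with no neighbours among the first 3 called apart, although LPS/IFNγ was called lower than LPS. Ccrl2 was highest with LPS, and in it neither dsHMGB1 and LPS/IFNγ nor frHMGB1 and PBS were called apart. Cx3cr1 ran from frHMGB1 and PBS through dsHMGB1 to LPS and LPS/IFNγ, and in C3ar1 no neighbours in the order were called apart.

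Compared per kilobase of exon, the make-up of receptor RNA changed with stimulation. The summed level of the 9 was 15789 ± 2820 normalized counts per kb (SD, n = 3) with PBS, 18019 ± 484 with frHMGB1, 37767 ± 857 with dsHMGB1, 52928 ± 353 with LPS and 41256 ± 1190 with LPS/IFNγ. C3ar1 held 63.7% ± 3.75 of that sum with PBS and 67.8% ± 1.18 with frHMGB1, then 33.7% ± 2.6 with dsHMGB1, 17.6% ± 0.552 with LPS and 21.4% ± 0.569 with LPS/IFNγ. Ccrl2 held 3.8% ± 0.859 with PBS and 3.46% ± 0.129 with frHMGB1, and 44.9% ± 1.48, 56% ± 0.281 and 37.2% ± 0.562 with dsHMGB1, LPS and LPS/IFNγ. C5ar1 held 29.9% ± 2.81 with PBS, 26.6% ± 1.17 with frHMGB1, 13% ± 0.498 with dsHMGB1, 18.3% ± 0.227 with LPS and 28.5% ± 0.955 with LPS/IFNγ. C3ar1 was the largest single share in the 6 libraries of PBS and frHMGB1 and Ccrl2 in the other 9. With LPS/IFNγ, C3ar1 and C5ar1 together still held more than Ccrl2 on average. With dsHMGB1 that order turned on the lengths used. By exon length C3ar1 and C5ar1 together held more than Ccrl2. With the longest transcript they held less, at 32.6% for C3ar1 and 12.7% for C5ar1 beside 45.8% for Ccrl2.

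C5ar1 held 29.9% ± 2.81 with PBS, 13% ± 0.498 with dsHMGB1, 18.3% ± 0.227 with LPS and 28.5% ± 0.955 with LPS/IFNγ. Ccr1 reached 9.12% ± 0.135 with LPS/IFNγ and stayed between 1.08% and 2.06% on average in the other 4 conditions. Fpr2 held 5.38% ± 1.01 with dsHMGB1, 5.32% ± 0.429 with LPS and 3.34% ± 0.348 with LPS/IFNγ, beside 0.0202% with PBS. These shares are within each library and so do not depend on the scaling between libraries.

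**Figure D3:**
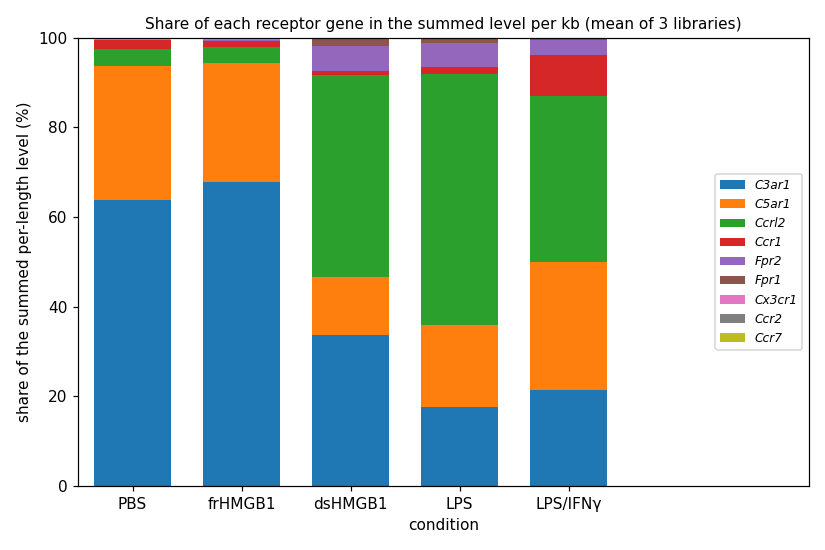
Share of each receptor gene (y axis, percent from 0 to 100) in the summed normalized counts per kb of exon of the 9 genes, by condition (x axis). Each stacked bar is the mean of 3 libraries; C3ar1 is the largest single part of the PBS and frHMGB1 bars, and Ccrl2 of the other 3.

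Ccr1 and Ccr2 lie in a cluster of receptor genes on chromosome 9, with 133257 bases between them. The genes Ccr1l1 and Ccr3 lie in that gap, and Xcr1 lies on the far side of Ccr1. Ccr3, which was chosen after its values were seen, went from 196 ± 35.3 normalized counts with PBS (SD, n = 3) to 490 ± 24.2 with LPS/IFNγ (log2 1.31, SE 0.17, adjusted p = 1.74e-05). All 4 plotted genes of the cluster had their highest mean with LPS/IFNγ, and Ccr2 was the gene of the 4 that was lower with LPS than with PBS. Ccr1l1, not plotted and chosen after its values were seen, had its highest mean with frHMGB1 (10.2 ± 2.37, against 4.91 ± 3.37 with LPS/IFNγ).

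**Figure D4:**
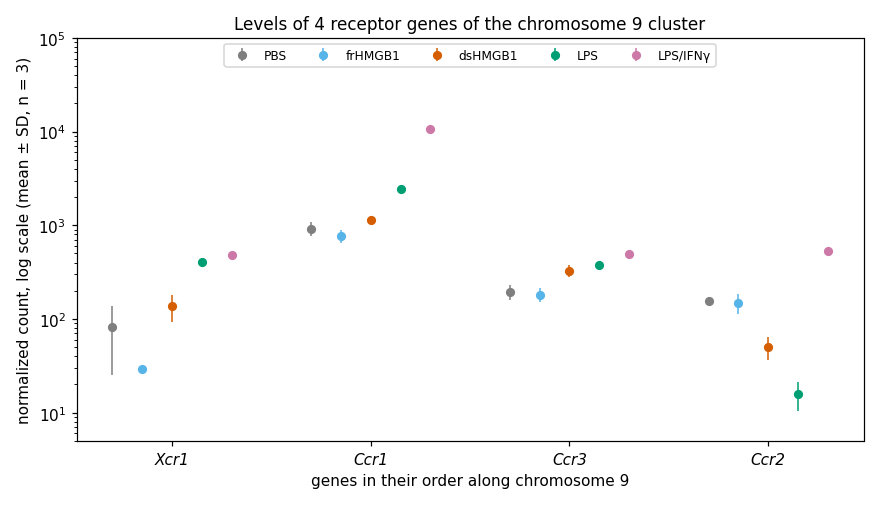
Normalized counts (y axis, log scale, mean ± SD of 3 libraries) of 4 receptor genes in their order along chromosome 9 (x axis), 1 colour per condition. LPS/IFNγ is the highest point of each gene, and Ccr2 has its lowest point with LPS; Ccr1l1, with means of at most 10.2 normalized counts, is left out.

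Of 32 other chemoattractant receptor genes, 16 were tested. Some of these could pass the filter only where they were high. Among them, named after their counts were seen, Ltb4r1 had 6 counts in all with PBS and 56 with LPS/IFNγ. Ackr3 had 2 and 63, Cxcr5 4 and 36, and Cxcr6 7 and 44. The counts and medians below include such genes, so they are no evidence of a difference from all tested genes. With dsHMGB1, 5 were called higher and 5 lower than PBS, against 23.3% and 24.2% of all tested genes. With LPS the counts were 7 and 3, against 26.7% and 36.2%, and with LPS/IFNγ 9 and 2, against 29% and 31.2%. With frHMGB1, 0 were called higher and 1 lower (Xcr1), against 1.31% and 5.69%, and for that 0, edgeR gave 1 at an unadjusted p under 0.05 and DESeq2 gave 0. Under the other settings, left-out libraries aside, the counts higher and lower ran from 0 to 3 and 0 to 2 with frHMGB1, 2 to 6 and 4 to 7 with dsHMGB1, 3 to 8 and 3 to 5 with LPS, and 5 to 9 and 2 to 5 with LPS/IFNγ. With a library left out, the count higher with dsHMGB1 ran from 4 to 7. Their median log2 fold change was 0.18, 0.45, 0.82 and 1.46 with frHMGB1, dsHMGB1, LPS and LPS/IFNγ, beside -0.01, -0.10, -0.21 and -0.12 for all tested genes.

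Cxcr4, the receptor of Cxcl12, fell with dsHMGB1, LPS and LPS/IFNγ, as Cx3cr1 did. It had 17352 ± 587 normalized counts with PBS, 1493 ± 128 with dsHMGB1, 653 ± 52.5 with LPS and 384 ± 18.9 with LPS/IFNγ (log2 -3.54, -4.73 and -5.50, adjusted p = 1.06e-11, 6.84e-13 and 2.54e-13). C5ar2, the other C5a receptor, had 509 ± 179 with PBS, 66.9 ± 19 with dsHMGB1, 137 ± 17.1 with LPS and 521 ± 48 with LPS/IFNγ. It fell with dsHMGB1 (log2 -2.93, SE 0.283, adjusted p = 1.96e-06). Cmklr1, a signalling receptor for chemerin, the ligand that Ccrl2 presents, rose 4.21-fold with dsHMGB1 (log2 2.07, SE 0.318, adjusted p = 0.000192) and was 2.4-fold higher there than with LPS (log2 1.26, adjusted p = 0.00849).

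Xcr1, the receptor of Xcl1, had 81.2 ± 55.7 with PBS and 406 ± 45.1 with LPS (log2 2.35, SE 0.365, adjusted p = 5.85e-05; edgeR log2 2.99 without PBS replicate 3). Its lower call with frHMGB1 (log2 -1.45, adjusted p = 0.0373) was lost without PBS replicate 3 (edgeR log2 -0.75, adjusted p = 0.0579) and without frHMGB1 replicate 1 (0.104), 2 (0.13) or 3 (0.116), and also among protein-coding genes (0.166) and with the pair fitted alone (0.398). Ptafr, the receptor for platelet-activating factor, was 2.06-fold lower with LPS/IFNγ than with LPS (log2 -1.04, adjusted p = 0.000647). Gpr183, chosen after its values were seen, fell from 170 ± 36.2 with PBS to 4.23 ± 2.12 with dsHMGB1 (log2 -5.30, SE 0.445, adjusted p = 1.19e-06).

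**Figure D5:**
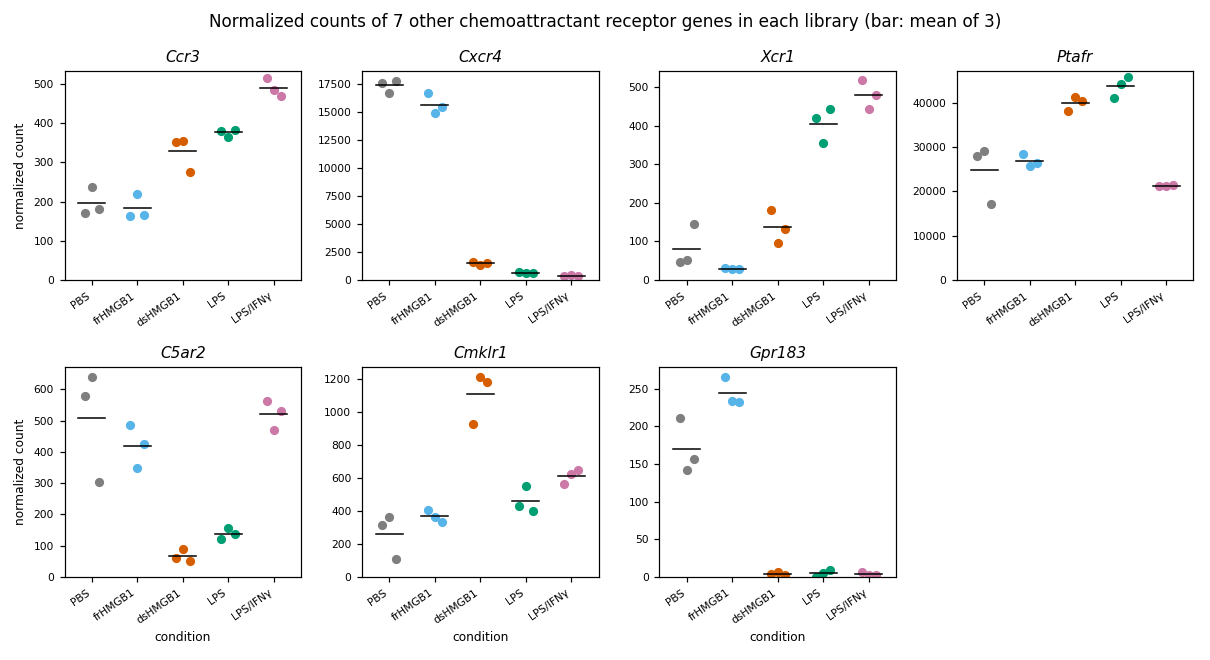
Normalized counts (y axis, linear from 0) of 7 other chemoattractant receptor genes in the 5 conditions (x axis); points are libraries and bars means of 3. Cxcr4 and Gpr183 are low in all 9 libraries of dsHMGB1, LPS and LPS/IFNγ, and Cmklr1 is highest with dsHMGB1.

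Genes for ligands of some of the 9 receptors were expressed by the same cultures, while the listed ligand genes of Ccr7, C5ar1 and Ccrl2 had at most 25 counts in any condition and were not tested. Of 17 ligand genes, 13 were tested, and 12 were called higher and 1 lower with dsHMGB1 (against 23.3% and 24.2% of all tested genes), 11 and 0 with LPS (26.7% and 36.2%), and 11 and 2 with LPS/IFNγ (29% and 31.2%). For that 0, edgeR gave 0 at an unadjusted p under 0.05, and DESeq2 gave 0. Their median log2 fold change was 5.36, 6.27 and 4.89 in those conditions and 0.28 with frHMGB1. For frHMGB1 the counts were 1 higher (Cx3cl1, chosen after its values were seen, log2 0.68, adjusted p = 0.0145) and 0 lower, against 1.31% and 5.69% of all tested genes. At an unadjusted p under 0.05, edgeR gave 5 higher and 0 lower there, and DESeq2 called 4 higher and 0 lower. Without frHMGB1 replicate 2 the Cx3cl1 call was lost (0.0656), leaving 0, and it was also lost among protein-coding genes (0.0991) and with the pair fitted alone (0.351). The count of 1 became 2 without PBS replicate 1, 8 without PBS replicate 3 and 4 without frHMGB1 replicate 3. The 0 lower with LPS became 2 with library totals, and the 2 lower with LPS/IFNγ became 0 with no filter and 1 without PBS replicate 3 or any 1 LPS/IFNγ library.

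For Ccr1, the ligand gene Ccl3 had 2878 ± 956 normalized counts with PBS, 147885 ± 20800 with dsHMGB1, 562717 ± 5610 with LPS and 84205 ± 6910 with LPS/IFNγ. Ccl5 rose 583-fold with dsHMGB1 (log2 9.19, SE 0.426, adjusted p = 2.17e-08) to 108536 ± 15200, beside 290508 ± 11400 with LPS and 204847 ± 9800 with LPS/IFNγ, and the other abundant chemokine genes Ccl4 and Ccl9 had 78306 ± 16500 and 104840 ± 9840 normalized counts with dsHMGB1. For Ccr2, the ligand gene Ccl2 had 124 ± 29.9 with PBS, 5028 ± 815 with dsHMGB1, 41593 ± 632 with LPS and 13110.2 ± 315 with LPS/IFNγ, and was lower with dsHMGB1 than with LPS (log2 -3.05, SE 0.187, adjusted p = 1.46e-07). Ccl12, another Ccr2 ligand, had 3.61 ± 3.52 with PBS and 2351 ± 27.1 with LPS, and reached 4065 ± 30.7 with LPS/IFNγ. Its change from PBS with LPS/IFNγ was 10.39 on the log2 scale (SE 0.433, adjusted p = 1.07e-10). That change rests on 12 counts in PBS, and edgeR gave 9.62 without PBS replicate 1 and 10.90 without PBS replicate 3. Ccl12 had so few counts with PBS that its being tested is no evidence of a difference.

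For Fpr2, the ligand gene Saa3 had 25249.5 ± 6010 with dsHMGB1, 42477 ± 3440 with LPS and 3569 ± 245 with LPS/IFNγ, and was 7.07-fold higher with dsHMGB1 than with LPS/IFNγ (log2 2.82, SE 0.724, adjusted p = 0.00943). Anxa1, whose product annexin A1 binds Fpr2, fell with dsHMGB1 (log2 -0.60, SE 0.135, adjusted p = 0.000435) from 115129 ± 25900 to 75726 ± 3660. For C3ar1, C3, chosen after its values were seen, rose 47.9-fold with dsHMGB1, 57-fold with LPS and 89.8-fold with LPS/IFNγ (adjusted p = 1.37e-09, 5.97e-10 and 2.5e-10). Ccl6 was 1.28-fold higher with dsHMGB1 than with LPS (adjusted p = 0.00919), a call lost without dsHMGB1 replicate 1 (0.0653) or LPS replicate 2 (0.0738). Ccl8 was 2.32-fold higher with LPS/IFNγ than with LPS (adjusted p = 0.0398), a call lost without any 1 of those 6 libraries (0.0952 to 0.146) and with RLE scaling (0.0511).

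Of 25 genes for the signalling that these receptors share, all 25 were tested. With dsHMGB1, 12 were higher and 6 lower than PBS, against 23.3% and 24.2% of all tested genes. With LPS the counts were 12 and 8, against 26.7% and 36.2%, and with LPS/IFNγ 10 and 9, against 29% and 31.2%. With frHMGB1 the counts were 0 and 0, against 1.31% and 5.69%, where edgeR gave 3 higher and 0 lower at an unadjusted p under 0.05 and DESeq2 called 1 higher, and where 4 were higher without PBS replicate 3. Under the other settings, left-out libraries aside, the counts higher and lower ran from 5 to 12 and 0 to 9 with dsHMGB1, 5 to 12 and 2 to 12 with LPS, and 2 to 10 and 2 to 15 with LPS/IFNγ. The smallest counts came from the study's cutoff and the largest lower counts from library totals. The medians were 0.10, 0.45, 0.08 and 0.08 with frHMGB1, dsHMGB1, LPS and LPS/IFNγ. The inhibitory G protein gene Gnai2 had between 35207 and 43327 normalized counts on average in all 5 conditions, and Gnb2 rose 1.76-fold from 15120 with PBS to 26549 with LPS (log2 0.81, SE 0.149, adjusted p = 9.18e-05), a call lost with library totals (edgeR log2 0.15, adjusted p = 0.187).

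Several regulators of receptor signalling were called. Rgs1, which shortens G protein signals, rose 8.32-fold with dsHMGB1, 12.7-fold with LPS and 13.3-fold with LPS/IFNγ (adjusted p = 1.06e-10, 1.65e-11 and 1.09e-11). Rgs16 was 5.52-fold higher with dsHMGB1 than with LPS/IFNγ (log2 2.46, SE 0.176, adjusted p = 2.13e-07). Arrb1, which encodes an arrestin that takes receptors off the membrane, fell with dsHMGB1, LPS and LPS/IFNγ (log2 -1.51, -3.68 and -3.45, adjusted p = 2.15e-05, 3.67e-09 and 6.47e-09). Pik3r5, a subunit of the PI3-kinase that receptors drive through G proteins, rose 4.22-fold with dsHMGB1 and 5.7-fold with LPS (adjusted p = 3.91e-08 and 4.69e-09), and its alternative Pik3r6 was 4.52-fold lower with LPS/IFNγ than with LPS (adjusted p = 8.19e-07). Of the other genes named by the rule, Gnb1 was 1.82-fold higher with dsHMGB1 than with PBS (adjusted p = 4.51e-07) and Rgs14 1.6-fold lower with dsHMGB1 than with LPS (0.000281). Pik3cg was 2.15-fold higher with LPS/IFNγ than with LPS (0.00808), and Prex1 1.84-fold lower with dsHMGB1 than with LPS/IFNγ (0.014), a call lost without dsHMGB1 replicate 1 (0.0658) and with library totals (0.129).

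Genes whose pattern over the 15 libraries was most like each receptor's were ranked by Pearson r of log2(normalized count + 1) among 10101 or 10102 protein-coding genes with at least 100 normalized counts on average. The libraries share 5 conditions, so r mostly tracks the condition means. Nearest to Ccrl2 were Tnfsf9 (r = 0.999), Tnfaip2 and Mthfd2 (0.998 each), and nearest to Fpr2 were Ikbke (0.991), Cst7 (0.99) and Ube2l6 (0.989). For Fpr1 they were Actr3 (0.986), Vasp (0.982) and Tifa (0.98), and for Ccr1 Ece1 (0.993), Furin (0.992) and Litaf (0.989). C5ar1 was nearest to Unc5b (0.992), P2ry2 (0.99) and Slc39a8 (0.988), and C3ar1 to Chpf2 (0.968), Pip4k2b and 6030458C11Rik (0.96 each). For Ccr2 they were Dok2 (0.973), Rasgef1a (0.96) and Serpinb8 (0.958), for Cx3cr1 Pars2 (0.981), Tmem158 (0.976) and Lyrm9 (0.971), and for Ccr7 Trmt44 (0.978), Carhsp1 (0.975) and Vezt (0.972). Only Dok2 and Pars2 were also among the nearest 3 by Spearman's rho. Among the receptors themselves, the closest pair was Ccrl2 and Fpr2 (r = 0.974), followed by Ccr1 and Ccr7 (0.936).

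Marker genes of several cell types were read in the same libraries. All 10 macrophage markers were tested, led by Lyz2, and their summed level ran from 32400 to 35400 CPM (counts divided by the library total in units of 1e+06) with PBS, 35100 to 35600 with frHMGB1, 23900 to 26700 with dsHMGB1, 21300 to 22200 with LPS and 18400 to 18900 with LPS/IFNγ. That sum is scaled by library totals and led by Lyz2. In edgeR's test, of the 10, 3 were called higher and 1 lower with dsHMGB1 (against 23.3% and 24.2% of all tested genes), 4 and 1 with LPS (26.7% and 36.2%), and 5 and 2 with LPS/IFNγ (29% and 31.2%), with median log2 fold changes of 0.30, 0.31 and 0.55. Neutrophils carry much Fpr1 and Fpr2, and of 10 neutrophil markers Ly6g, Mpo, Retnlg and S100a9 were at 0 in every library. The neutrophil sum was 2.1 to 5.76 with PBS, 2.1 to 2.3 with frHMGB1, 2.26 to 4.63 with dsHMGB1, 4.31 to 4.63 with LPS and 1.97 to 2.67 with LPS/IFNγ, led by S100a8. Of the 2 neutrophil markers tested, S100a8 and Camp, 1 was called higher with dsHMGB1, 2 with LPS and 0 with LPS/IFNγ. The shares of all tested genes called higher were 23.3%, 26.7% and 29%. The median log2 fold changes of the 2 markers were 2.04, 2.02 and 0.43. Fpr1 and Fpr2 were highest with dsHMGB1 and LPS and were also called higher with LPS/IFNγ. Camp, named after its values were seen, had 0 to 0.122 CPM with PBS and 0.375 to 0.683 with dsHMGB1. It had 8 counts in all with PBS and 110 with dsHMGB1, so its being tested is no evidence of a difference. Of 10 dendritic cell markers 7 were tested, and their sum, led by Cd83, was 70.7 to 75.8 with PBS, 80.8 to 91.7 with frHMGB1, 762 to 814 with dsHMGB1, 1420 to 1430 with LPS and 2020 to 2060 with LPS/IFNγ. Without Cd83 the sum was 125 to 140 with dsHMGB1, 470 to 482 with LPS and 395 to 421 with LPS/IFNγ. Other genes of the list, named after their values were seen, were near 0. Flt3 had at most 4 counts in any condition, Siglech at most 2 and Cd209a at most 17. Clec9a had 1.8 to 3.51 CPM with PBS, 0.106 to 0.263 with dsHMGB1, 0.118 to 0.249 with LPS and 0.778 to 1.18 with LPS/IFNγ. Of the 7 tested, 4 were called higher and 1 lower with dsHMGB1, 5 and 1 with LPS, and 6 and 1 with LPS/IFNγ, beside the same shares of all tested genes as above (median log2 fold changes 2.27, 3.68 and 5.08). From LPS to LPS/IFNγ, where Ccr7 rose, 4 of the 7 were called higher and 1 lower, against 16.3% and 9.36% of all tested genes.

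The sum of 5 monocyte markers, of which 3 were tested and Vcan was the most abundant, was 1.23 to 3.84 with PBS, 2.54 to 3.55 with frHMGB1, 28.6 to 45.1 with dsHMGB1, 179 to 221 with LPS and 473 to 491 with LPS/IFNγ. In the 9 libraries of dsHMGB1, LPS and LPS/IFNγ nearly all of it was Vcan, and without that gene the sum was 0.432 to 0.725 with PBS, 1.78 to 1.87 with LPS, where Ccr2 was lowest, and 1.67 to 2.17 with LPS/IFNγ, where Ccr2 was highest. Of the 3 tested, 2 were called higher with dsHMGB1, 3 with LPS and 3 with LPS/IFNγ, against 23.3%, 26.7% and 29% of all tested genes (median log2 fold changes 3.14, 3.83 and 5.05). Of 6 lymphocyte markers, Cd3e, Cd3g, Ncr1 and Nkg7 were at 0 in every library, and 0 of the 6 passed the filter on low counts. Of 5 mast cell, basophil and eosinophil markers, Fcer1a and Epx were at 0 in every library, and the sum, led by Cpa3, reached at most 0.293. The 4 fibroblast markers, led by Col1a1, summed to 111 to 266 with PBS, where PBS replicate 3 was lowest, and to 180 to 235 over the 12 other libraries. These sums are scaled by library totals, and in edgeR's test 1 of the 4 was called higher with dsHMGB1, 3 with LPS and 3 with LPS/IFNγ, beside those same shares (median log2 fold changes 0.52, 0.76 and 0.68). The part of any of these cell types in the receptor levels was not tested.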

How the data were processed

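RNA of 15 libraries was analysed, 3 for each of 5 conditions. Per the labels and the methods, the authors called bases with CASAVA, mapped paired-end reads to GRCm38 with STAR and deposited raw counts per Ensembl gene, neither scaled nor filtered; versions, the counting tool and the annotation are not given. Library totals ran from 40934540 to 80925478 counts, and a group at 0 was given a floor of 3 counts over the group. Of 51763 identifiers, 51661 were in GENCODE M21 and 102 were not.

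Genes were filtered with filterByExpr (minimum count 10, minimum total 15), which left 16919, scaled by TMM and tested with edgeR 4.0.16's quasi-likelihood F test on all 15 libraries, with the Benjamini-Hochberg correction; an adjusted p under 0.05 was a call. DESeq2 1.42.0 gave normalized counts, log2 fold changes without shrinkage and standard errors, all in R 4.3.3. Each stimulation was compared with PBS and with frHMGB1, and dsHMGB1, LPS and LPS/IFNγ with each other, 10 comparisons in all. Libraries of the same replicate number were not paired.

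The 9 receptors and the lists of other receptors, ligands, signalling genes and cell markers were chosen with earlier results of these data known. From each of the first 3 lists, the rule named the 5 tested genes with the highest mean and, per comparison other than those with frHMGB1, the called genes with the largest rise and fall among those averaging 100 or more normalized counts; for each receptor it named the 3 protein-coding genes most alike. Not every gene the rule names is given in the text. Alternatives were DESeq2's test, RLE scaling, no filter, a filter of 1 CPM, protein-coding genes alone, the study's cutoff of a log2 change past 2 without a test, separate fits for each pair of conditions, a block for replicate number, the longest transcript for lengths, and leaving out each library. Scaling by library totals, and leaving out PBS replicate 3 where PBS is not compared, were added after seeing the data. Promoter windows (250 bases before to 50 after the start) came from RefSeq on GRCm38.p6. No library was left out of the main values.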

Additional observations from a re-analysis of the deposited data

How the results depend on the processing

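Of 68 calls among the 90 results of the 9 receptors, 68 were kept by DESeq2's test (2 gained), by RLE scaling, and by a block for replicate number, although the numbers do not pair libraries (r of same-numbered pairs had a median of -0.00453). No called direction of a receptor reversed. No filter lost 3 and protein-coding genes alone lost 1, library totals lost 3 (C5ar1 in LPS/IFNγ against LPS, 0.143, and against frHMGB1 Ccr1 with dsHMGB1, 0.442, and C5ar1 with LPS, 0.0902) and gained 4 in the direction of the main value and 1 against it (C5ar1 in dsHMGB1 against frHMGB1). The study's cutoff kept 44. With at least 1 CPM, Ccr7 was filtered out and 60 of 61 were kept, and pairs fitted alone kept 63 of 64.

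With frHMGB1, receptors called higher numbered 1 with at least 1 CPM, 1 among protein-coding genes and 0 with the pair fitted alone. In that last fit Fpr1 was tested and not called, and Fpr2 was not tested. Under the study's cutoff, lower receptors with dsHMGB1 numbered 1, in dsHMGB1 against LPS 0 were higher and 1 lower, and in LPS/IFNγ against LPS 1 was lower. In dsHMGB1 against LPS/IFNγ, 5 were higher by DESeq2, 5 with the pair fitted alone and 5 with library totals, which also gave 2 lower with LPS/IFNγ against PBS. Leaving out 1 library gave ranges, higher then lower, of 1 to 2 and 0 to 1 with frHMGB1, 3 to 5 and 2 to 2 with dsHMGB1, 6 to 6 and 2 to 3 with LPS, 7 to 7 and 1 to 2 with LPS/IFNγ, 2 to 3 and 3 to 5 in dsHMGB1 against LPS, 2 to 5 and 4 to 4 in dsHMGB1 against LPS/IFNγ, and 2 to 4 and 2 to 3 in LPS/IFNγ against LPS.

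Values not called with all libraries and TMM changed sign in edgeR. C5ar1 with frHMGB1 was -0.017 with no filter and -0.028 among protein-coding genes (-0.053 to 0.147 with a library left out), and with dsHMGB1 -0.308 with library totals (-0.052 to 0.151). With library totals and dsHMGB1, Ccr1 was -0.058 and C3ar1 -0.057 against PBS, and against frHMGB1 C3ar1 was -0.342 (-0.029 to 0.092 with a library left out) and C5ar1 -0.375, a call (adjusted p = 0.0291; -0.043 to 0.048 with a library left out). Ccr2 with frHMGB1 ran from -0.237 to 0.109, and C3ar1 in LPS/IFNγ against LPS was 0.001 among protein-coding genes. C5ar2 with LPS/IFNγ, -0.007, was 0.032 by DESeq2 and under the study's cutoff, 0.033 with RLE, 0.075 with no filter, 0.004 among protein-coding genes, 0.074 fitted alone and 0.042 with the replicate block (-0.299 to 0.209 with a library left out). Anxa1 with LPS was 0.009 fitted alone (-0.18 to 0.09), and Gnai2 with dsHMGB1 -0.309 with library totals, a call (adjusted p = 0.0177). The causes were not tested.

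With the longest transcript, shares with LPS were 1.56% for Ccr1, 56.8% for Ccrl2, 16.9% for C3ar1, 17.8% for C5ar1 and 5.84% for Fpr2. With LPS/IFNγ they were 8.85% for Ccr1, 0.22% for Ccr2, 38.2% for Ccrl2, 20.8% for C3ar1 and 3.71% for Fpr2, and with frHMGB1 3.63% for Ccrl2. Of all genes, 1185 were called with frHMGB1, but 716 with at least 1 CPM, 70 among protein-coding genes, 4122 under the study's cutoff, 189 fitted alone and 3035 without PBS replicate 3. With dsHMGB1 8028 were called, 5182 under the study's cutoff and 4747 fitted alone. Here the study's cutoff was applied to DESeq2 values of all 51763 genes, with no filter on low counts. Its counts of all genes are therefore from a larger set than the 16919 tested and are not the study's own counts. Fitted alone and without PBS replicate 3, dsHMGB1 against LPS went from 4461 to 6985 and 8465, dsHMGB1 against LPS/IFNγ from 5621 to 8580 and 9238, and LPS/IFNγ against LPS from 4348 to 8999 and 8566. With library totals, the percent of calls that were higher went from 49 to 28.1 with dsHMGB1, 42.5 to 21.9 with LPS and 48.2 to 25.3 with LPS/IFNγ, and from 59.9 to 84 and 49.8 to 74.3 in dsHMGB1 against LPS and LPS/IFNγ. Without PBS replicate 3 it went from 18.7 to 48.1 with frHMGB1 and from 63.6 to 50.8 in LPS/IFNγ against LPS, and with frHMGB1 it was 58.6 among protein-coding genes and 8.54 with no filter.

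The replicates were technical replicates from pooled mice, so the tests say nothing on other pools. Ccr7, and Fpr1 and Fpr2 in PBS and frHMGB1, had too few counts for a precise ratio. RNA does not give receptor protein or migration, and neither was measured here.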
